A study of Danio rerio with 48 samples.

Results

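A set of 49 genes, of the 32520 gene IDs counted, gave transcripts that were present in zebrafish embryos of the AB strain and nearly missing from embryos of the TL strain at every stage sampled. Single whole embryos of both laboratory strains, naturally spawned and kept at 28.5 °C, were profiled by CEL-seq2, which barcodes the 3′ ends of polyadenylated RNA before pooling. AB and TL embryos were collected from 2.25 to 5.25 hours post fertilisation (hpf), in 4 stages 1 h apart. Each of the 8 groups held 6 embryos, with embryos 1 to 3 from biological replicate 1 and embryos 4 to 6 from biological replicate 2. No treatment or transgene is given for either strain, and the labels do not say which parents or clutch an embryo came from. Each stage had its own library index and each replicate its own 2 sequencing runs, so stage and index, and replicate and run, cannot be told apart.

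Members were chosen by level. CPM, an embryo's counts scaled to a common total, left out one very abundant ID, and a gene was kept if its AB mean was at least 2 CPM and its TL mean at most 12.5% of the AB mean at all 4 stages. The thresholds were met by 55 genes, of which 6 belonged to the 7 IDs that the rule leaves out. Because the difference between strains chose the genes, their AB and TL levels are given as a description and without a test. The same thresholds with the strains exchanged were met by 32 genes.

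In the hours sampled, the embryo passes from RNA that the mother laid down in the egg to RNA transcribed from its own genome. Maternal transcripts reflect the mother's genotype and are removed over time, while zygotic transcripts appear as the embryo's genome becomes active. The stage labels could be read in the data: 10 zygotic marker genes, among them tbxta and gsc, summed to 11.5 CPM in AB at 2.25 hpf and 2690 CPM at 5.25 hpf, and to 3.40 and 2256 CPM in TL. Most of the sums at 2.25 hpf was gsc, at 8.65 CPM in AB and 1.93 CPM in TL. Of 10 maternal markers, 9 were matched and all 9 were above 1 CPM in every group, with sums of 3459 to 5314 CPM. These sums hide opposite changes. From 2.25 to 5.25 hpf in AB, nanog rose from 506 to 1517 CPM and buc fell from 1256 to 216 CPM. The 3 matched markers of blood and immune cells summed to at most 0.828 CPM. The 2 matched markers of the adult ovary follicle summed to at most 0.237 CPM in AB and to 1.12 to 2.93 CPM in TL, and their part in the results was not tested. Total counts per embryo ran from 4931012 to 20036495, and from 3282435 to 12797100 without the most abundant ID.

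Together the 49 transcripts made up 837 ± 135 CPM of an AB embryo at 2.25 hpf, 878 ± 113 at 3.25 hpf, 806 ± 81.7 at 4.25 hpf and 552 ± 71.7 at 5.25 hpf (SD, n = 6). The TL sums were 31.6 ± 11.1, 36.6 ± 8.76, 30.7 ± 8.75 and 26.6 ± 3.46 CPM in the same order. Each TL embryo reached between 2.05% and 5.59% of the AB mean of its stage. In counts, these transcripts gave 1938 to 10174 per AB embryo and 82 to 523 per TL embryo, so the TL values rested on few counts per gene. In whole embryos, fewer cells with a transcript and less of it per cell cannot be told apart.

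**Figure D1:**
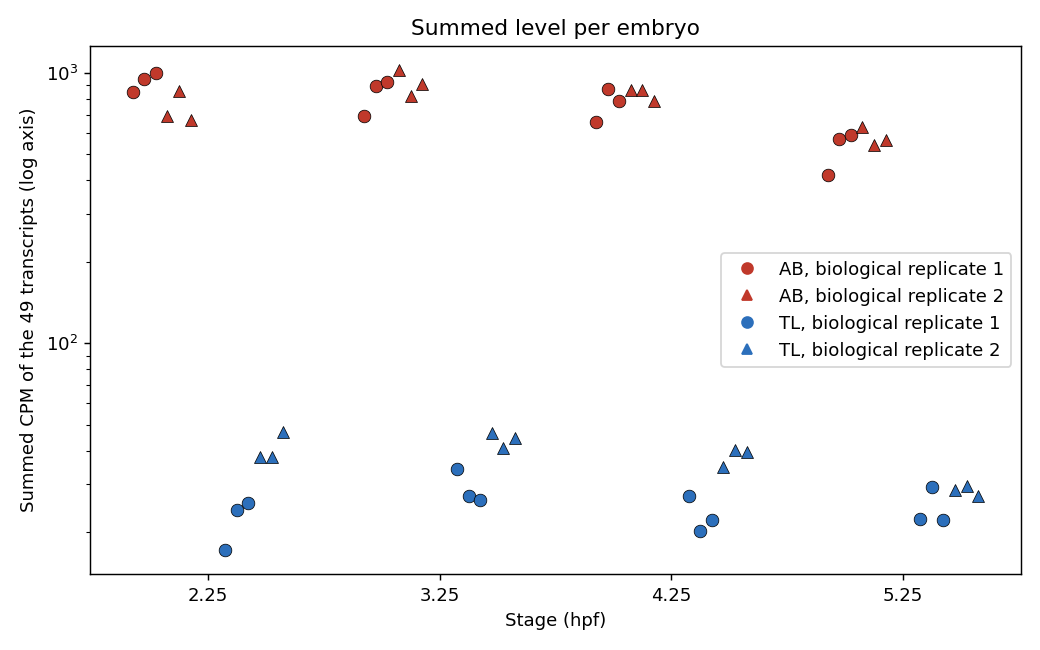
Summed CPM of the 49 transcripts in each embryo (log axis) against stage in hpf, with AB in red, TL in blue, circles for biological replicate 1 and triangles for replicate 2. The AB embryos lay between 419 and 1026 CPM and the TL embryos between 17.1 and 46.8 CPM.

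The transcript with the highest AB level was zgc:171699 (ENSDARG00000095966), which carries a clone name and has no assigned function. Its lowest, median and highest AB embryos at 2.25 hpf had 67.2, 112 and 188 CPM, and its mean over the stages was 96.8 CPM in AB and 2.18 CPM in TL. Next came si:dkeyp-98a7.4 (ENSDARG00000096097), at 49.1 CPM in AB and 1.17 in TL. Among the 12 most abundant members were also others with clone names and 2 with no symbol. The means of the latter were 38.5 CPM in AB and 2.191 in TL for ENSDARG00000110902, and 20.2 and 1.04 for ENSDARG00000111824. Those with clone names had 34.9 and 1.41 for si:ch211-251f6.7 (ENSDARG00000091558), 34.6 and 0.760 for zgc:173544 (ENSDARG00000070714), and 34.4 and 1.00 for si:dkey-104n9.1. The gene with the lowest TL share was the unnamed ENSDARG00000100640, at 8.13 CPM in AB; the 24 TL embryos held 4 counts of it in all, and 20 of them held none. The mean AB level of the members ran from 2.94 CPM for gcgra (ENSDARG00000104022), a glucagon receptor gene, to that of zgc:171699, with a median of 9.99 CPM.

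For 25 members every AB embryo was above every TL embryo at all 4 stages, which held for 1.41% of the 10598 genes with at least 2 CPM in AB at all stages. Since the rule used this contrast, nothing is read from this count. At the edge of the ratio threshold, DUSP22 (ENSDARG00000039850), a dual-specificity phosphatase gene, was inside with a highest TL share of 12.2%, as was NAGPA (ENSDARG00000075149) with 11.4%. POSTN (ENSDARG00000043806) and vps37d (ENSDARG00000097055) were outside with 12.6% each. At the edge of the level threshold, zgc:173770 and gcgra were inside with lowest AB means of 2.04 and 2.17 CPM, and sult2st3 and ltb4r2b outside with 1.96 and 1.95 CPM.

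**Figure D2:**
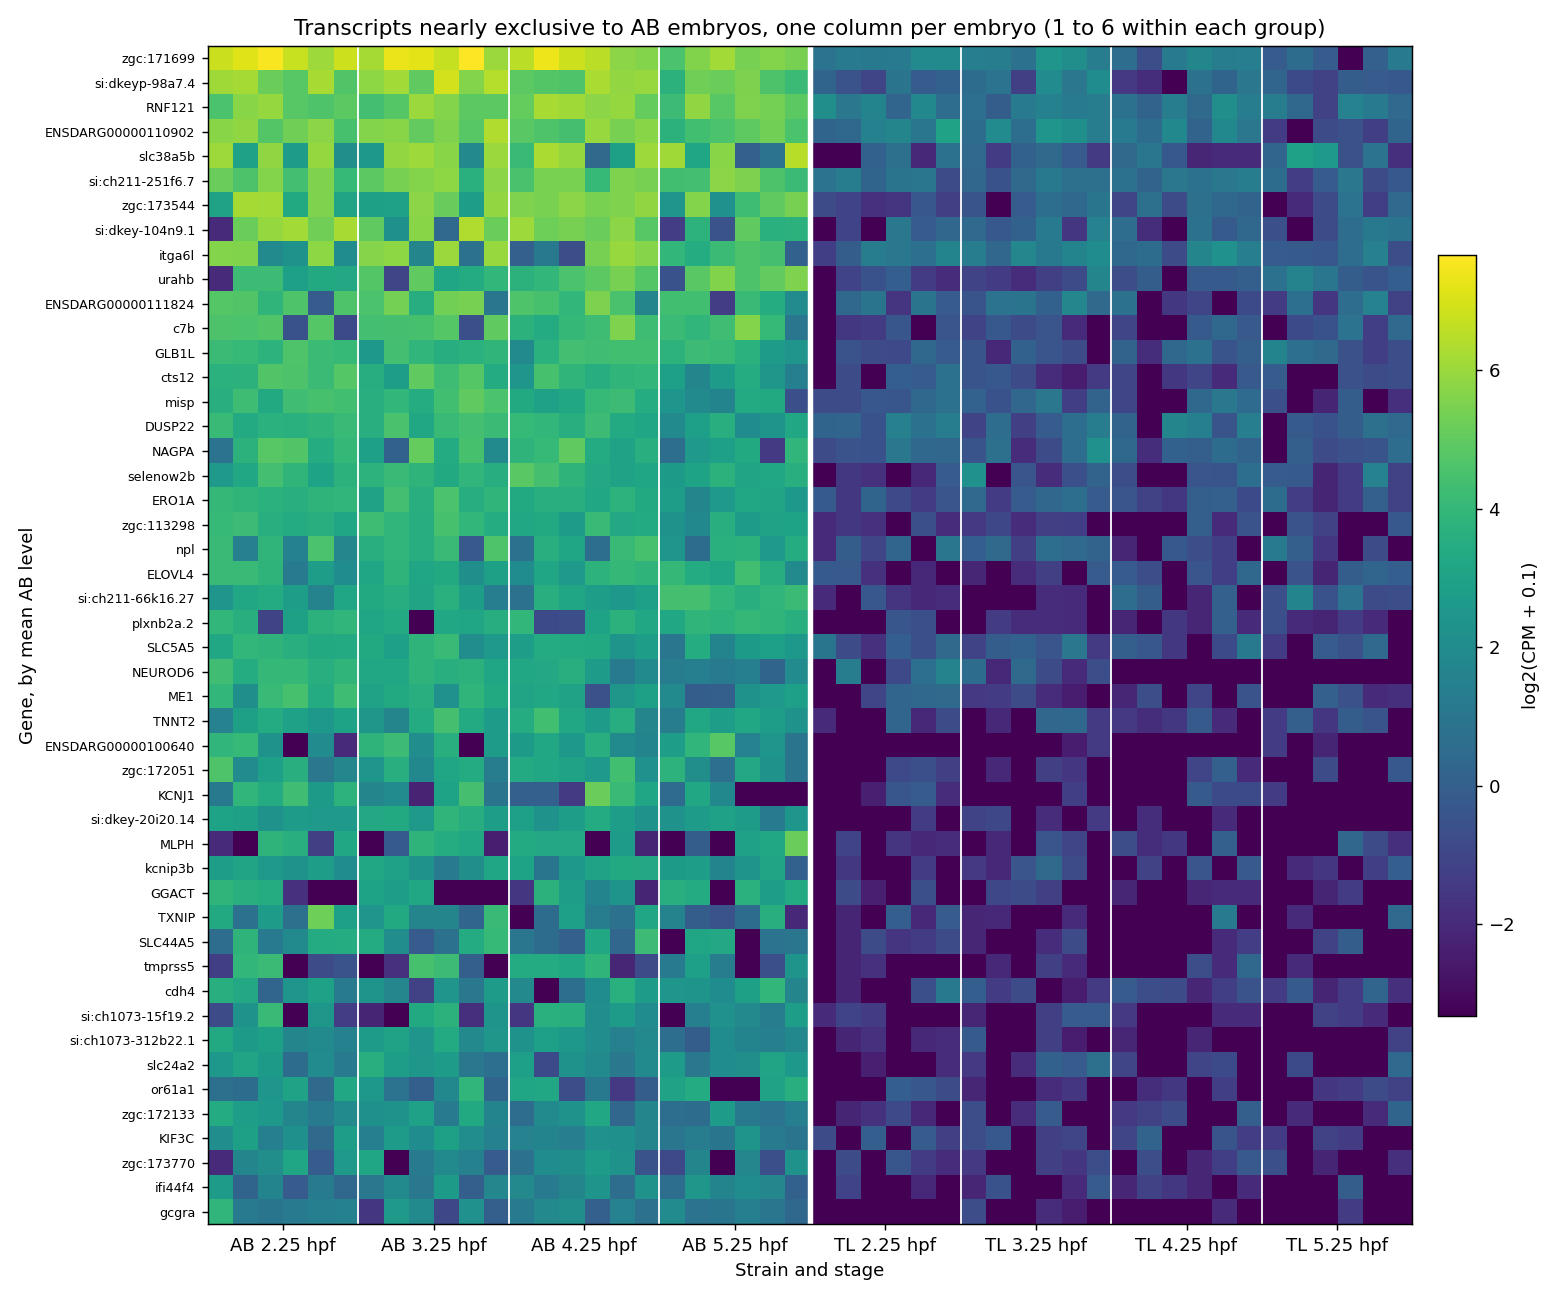
Level of 48 of the 49 transcripts (rows, by mean AB level) in each of the 48 embryos (columns, embryos 1 to 6 within each strain and stage), as log2(CPM + 0.1). The AB columns are bright and the TL columns dark in nearly all rows, and dark single cells within the AB columns mark embryos in which a transcript was at or near the TL level.

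The strain difference was also looked at in embryos that did not choose the genes. Applied to biological replicate 1 alone, the thresholds chose 58 genes, and in replicate 2 the AB mean was higher for all 58, at least 4-fold higher for 55, with a median fold of 16.8. The full thresholds were met again by 32 of the 58 (55.2%), beside 0.424% of the 10387 genes that had at least 2 CPM in AB at every stage there. Chosen in replicate 2, 44 genes were all higher in AB in replicate 1, 43 of them at least 4-fold, with a median fold of 22.8. Of these, 32 (72.7%) met the full thresholds, beside 0.561% of 10339 genes. The IDs that the rule leaves out were kept in this step. Without them the thresholds chose 53 genes in replicate 1 and 38 in replicate 2. Among the 58 genes 39 were members, and among the 44 genes 31 were. How many of the 32 were members was not counted. Both background shares also include the 32 genes.

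Among the members were 4 genes for solute carriers, the proteins that move small molecules across membranes. Most abundant was slc38a5b (ENSDARG00000014587), for a transporter of neutral amino acids, at a mean of 37.8 CPM in AB against 1.28 in TL. The sodium iodide symporter gene SLC5A5 (ENSDARG00000005392) had 9.01 and 0.734 CPM. The choline transporter-like gene SLC44A5 (ENSDARG00000017398) had 5.97 and 0.166 CPM, and slc24a2 (ENSDARG00000042988), for an exchanger of sodium, potassium and calcium, had 4.81 and 0.288 CPM. As a share this was 8.16% of the members, beside 1.53% of the genes with at least 2 CPM in AB. An ion channel gene was also present: KCNJ1 (ENSDARG00000091232), for an inward rectifier potassium channel, had 7.68 CPM in AB and 0.167 CPM in TL. So was kcnip3b (ENSDARG00000017880), for a protein that binds potassium channels, with 6.22 and 0.277 CPM.

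The integrin gene itga6l (ENSDARG00000056018), related to a laminin receptor subunit, had a mean of 27.4 CPM in AB and 1.92 CPM in TL. The gene plxnb2a.2 (ENSDARG00000077090), for a plexin, the receptor class for semaphorins, had 9.99 and 0.200 CPM. The cadherin gene cdh4 (ENSDARG00000015002), for a calcium-dependent adhesion molecule, had 5.35 and 0.427 CPM. Among the 156 IDs named as olfactory receptors, or61a1 (ENSDARG00000092558) alone reached 2 CPM in AB at all stages, and it was a member, with 4.79 and 0.193 CPM.

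Further members encode enzymes. The ubiquitin ligase gene RNF121 (ENSDARG00000060282) had 41.2 CPM in AB and 2.09 CPM in TL. In urahb (ENSDARG00000089331), for an enzyme of urate breakdown, the means were 20.4 and 0.816 CPM. Genes at lower AB levels included cts12 (ENSDARG00000042753), a cathepsin gene, at 14.5 CPM, and ERO1A (ENSDARG00000015228), which drives disulfide formation in the endoplasmic reticulum, at 11.7 CPM. The sialic acid lyase gene npl (ENSDARG00000009390) stood at 10.8 CPM, ELOVL4 (ENSDARG00000006773), for an elongase of very long fatty acids, at 10.4 CPM and the malic enzyme gene ME1 (ENSDARG00000053215) at 8.80 CPM. The TL means of these 5 genes were 0.434, 0.669, 0.672, 0.426 and 0.364 CPM.

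Members with known roles in immunity or transcription were named as follows. The complement gene c7b (ENSDARG00000057121), for a component of the membrane attack complex, had 19.6 CPM in AB and 0.486 CPM in TL, and the interferon-induced family member ifi44f4 (ENSDARG00000071355) had 2.99 and 0.166 CPM. NEUROD6 (ENSDARG00000040008), named for a neuronal transcription factor, had 8.90 and 0.469 CPM. No member was named as a zinc finger, finTRIM or MHC gene, families that held 113, 4 and 4 of the genes at 2 CPM in AB. The rule took part in this, since znf1156 (ENSDARG00000098800), with 96.9 CPM in AB and 1.15 in TL, met the thresholds and is one of the left-out IDs. The clone-named si:dkey-20i20.14 (ENSDARG00000071833), a member at 7.18 CPM, is listed by RefSeq under a zinc finger name. Clone names were carried by 13 members (26.5%, beside 8.72% of the genes at 2 CPM) and 3 had no symbol. Of 34 members matched to RefSeq, 33 were protein coding, and 8292 of the 8342 matched genes at 2 CPM were.

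Of the members, 9 share their symbol with another ID. Whether such IDs are close enough in sequence to have exchanged reads was not tested. For NEUROD6 the other ID had 9.89 CPM in AB and 10.5 CPM in TL, and for SLC44A5 it had 11.1 and 16.6 CPM. The other ELOVL4 ID had 69.7 CPM in AB and 34.6 CPM in TL. In these genes one copy was nearly missing from TL while the other was counted in both strains. Both further IDs of GGACT (ENSDARG00000038248, 6.04 CPM in AB and 0.139 CPM in TL) were also lower in TL, at 0.881 and 0.114 CPM for one and 2.42 and 0.430 CPM for the other.

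The order of genes in the RefSeq annotation of assembly GRCz12tu placed 34 members by name. A run of 3, zgc:171699, zgc:113298 (ENSDARG00000071648) and zgc:172133 (ENSDARG00000075248), lay together, 2, 3 and 5 gene ranks apart, with mean AB levels of 96.8, 11.6 and 4.36 CPM. One of the left-out IDs that met the thresholds, si:ch211-209l18.4, lay 3 to 8 ranks from them. Thus 8.82% of the placed members were within 5 ranks of another member, beside 1.88% of 8549 placed genes. One member, zgc:172051 (ENSDARG00000086569), lay 4 ranks from a gene of the exchanged kind, mhc1zfa, which had 0.303 CPM in AB and 5.77 CPM in TL; this was 2.94% of the members, beside 1.16%. Of the 68 nearest expressed genes on either side of the members, 4 were members themselves. Of the other 64, 7 (10.9%) were at least 2-fold higher in AB and 7 (10.9%) at least 2-fold higher in TL, beside 6.46% and 4.49% of all genes with 2 CPM in either strain.

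The spread of these transcripts among AB embryos of one stage is given as a description. The rule used the means of these same embryos, which a few high embryos can raise. All genes are therefore not a like background for it. The median coefficient of variation (SD over mean, 6 embryos) of the members was 56.2%, 54.9%, 48.8% and 55.2% at the 4 stages, beside 22.6%, 25.9%, 24.2% and 32.4% for all genes at 2 CPM or more. Among genes with a mean of 5 to 20 CPM, the members had 54.8%, 52.3%, 51.1% and 53.7% and all genes 31.5%, 34.4%, 33.0% and 39.9%. Members differed widely in this. ERO1A and si:dkey-20i20.14 were the most even, with a mean coefficient of 23.9% and 29.0%, and KCNJ1 and tmprss5 the most uneven, both with 117%.

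For many members some AB embryos of a stage were far below others. An AB embryo was counted as low for a gene if it had at most 12.5% of the highest AB embryo of its stage, a definition chosen after the values had been seen. It depends on that highest embryo, so gcgra at 2.25 hpf had a low embryo at 1.85 CPM because another had 14.8 CPM. By this count 24 of the 49 members had a low embryo at 2 or more stages, beside 4.36% of the 10598 genes at 2 CPM. Among genes with a mean of 5 to 20 CPM it was 14 of 28 members, beside 8.69%. In 17 of the 24 the low and the other embryos did not overlap over the stages, and in 7 they did. Within a stage the definition itself keeps them apart, so overlap could arise only between stages. Gaps could also be small, as for ME1, with low embryos at most at 0.851 CPM and the others at least at 0.914 CPM. The share over all genes was not taken, so nothing is read from this count. At least 1 AB embryo was at or under the highest TL embryo of its stage in 22 of the 24. Of all 49 members, 25 had no such embryo, beside 1.41% of the 10598 genes. Low embryos were found at all 4 stages for 12 members, beside 116 of the 10598 genes. At 1 or more stages they were found for 30 members (61.2%), beside 10.1% of those genes, and at none for 19. They occurred in both biological replicates for 19 members, for which the share over all genes was not taken. For 11 members, 4 or more of the 24 AB embryos were at or under the highest TL embryo of their stage. The share of all genes with 4 or more was not taken. Since the rule used the contrast with TL, these counts of overlap with TL are a description only. The counts of low embryos are likewise a description. They come from the AB values whose means chose the members, and all genes at 2 CPM were not chosen in that way.

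The protease gene tmprss5 (ENSDARG00000087717) was low in 12 of the 24 AB embryos. At 2.25 hpf AB embryos 2 and 3 had 15.6 and 17.7 CPM and the other 4 between 0 and 0.603 CPM. At 3.25 hpf embryos 3 and 4 had 21.8 and 18.3 CPM and the others at most 0.915 CPM, while the highest TL embryo of any stage had 1.19 CPM. No AB embryo lay between 0.915 and 2.21 CPM. At 2.25, 3.25 and 4.25 hpf the values thus fell into a high and a low cluster, with the low cluster overlapping TL. At 5.25 hpf the split was less clear, with AB embryos at 0, 0.535, 2.21, 2.44, 5.03 and 7.32 CPM.

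MLPH (ENSDARG00000070991), for melanophilin, which links pigment granules to a motor protein, was low in 11 AB embryos. These had at most 0.851 CPM and the other 13 had at least 6.49 CPM, with the highest at 35.3 CPM. GGACT, for an enzyme that breaks down crosslinked glutamyl-lysine, was low in 9 embryos, which had at most 0.235 CPM against at least 2.98 CPM in the other 15. At 3.25 hpf its 3 embryos of replicate 1 had 8.27, 6.98 and 9.47 CPM and all 3 of replicate 2 had 0. At 5.25 hpf, by contrast, all 3 embryos of replicate 2 were high, at 13.0, 6.96 and 10.3 CPM, and embryo 3 of replicate 1 had 0.

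Some of the more abundant members showed the same split at a higher level. For itga6l, the 9 low embryos had 0.528 to 4.73 CPM and the other 15 had 11.1 to 65.1 CPM. At 4.25 hpf embryos 1 to 3 had 0.939, 2.07 and 0.528 CPM and embryos 4 to 6 had 43.1, 63.4 and 51.6 CPM. In slc38a5b, 10 embryos had at most 8.85 CPM and 14 had 17.1 to 88.5 CPM. Its low AB embryos mostly stayed above TL, with 3 at or under the highest TL embryo of their stage. For c7b, 4 embryos had at most 1.90 CPM and the other 20 at least 10.8 CPM.

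**Figure D3:**
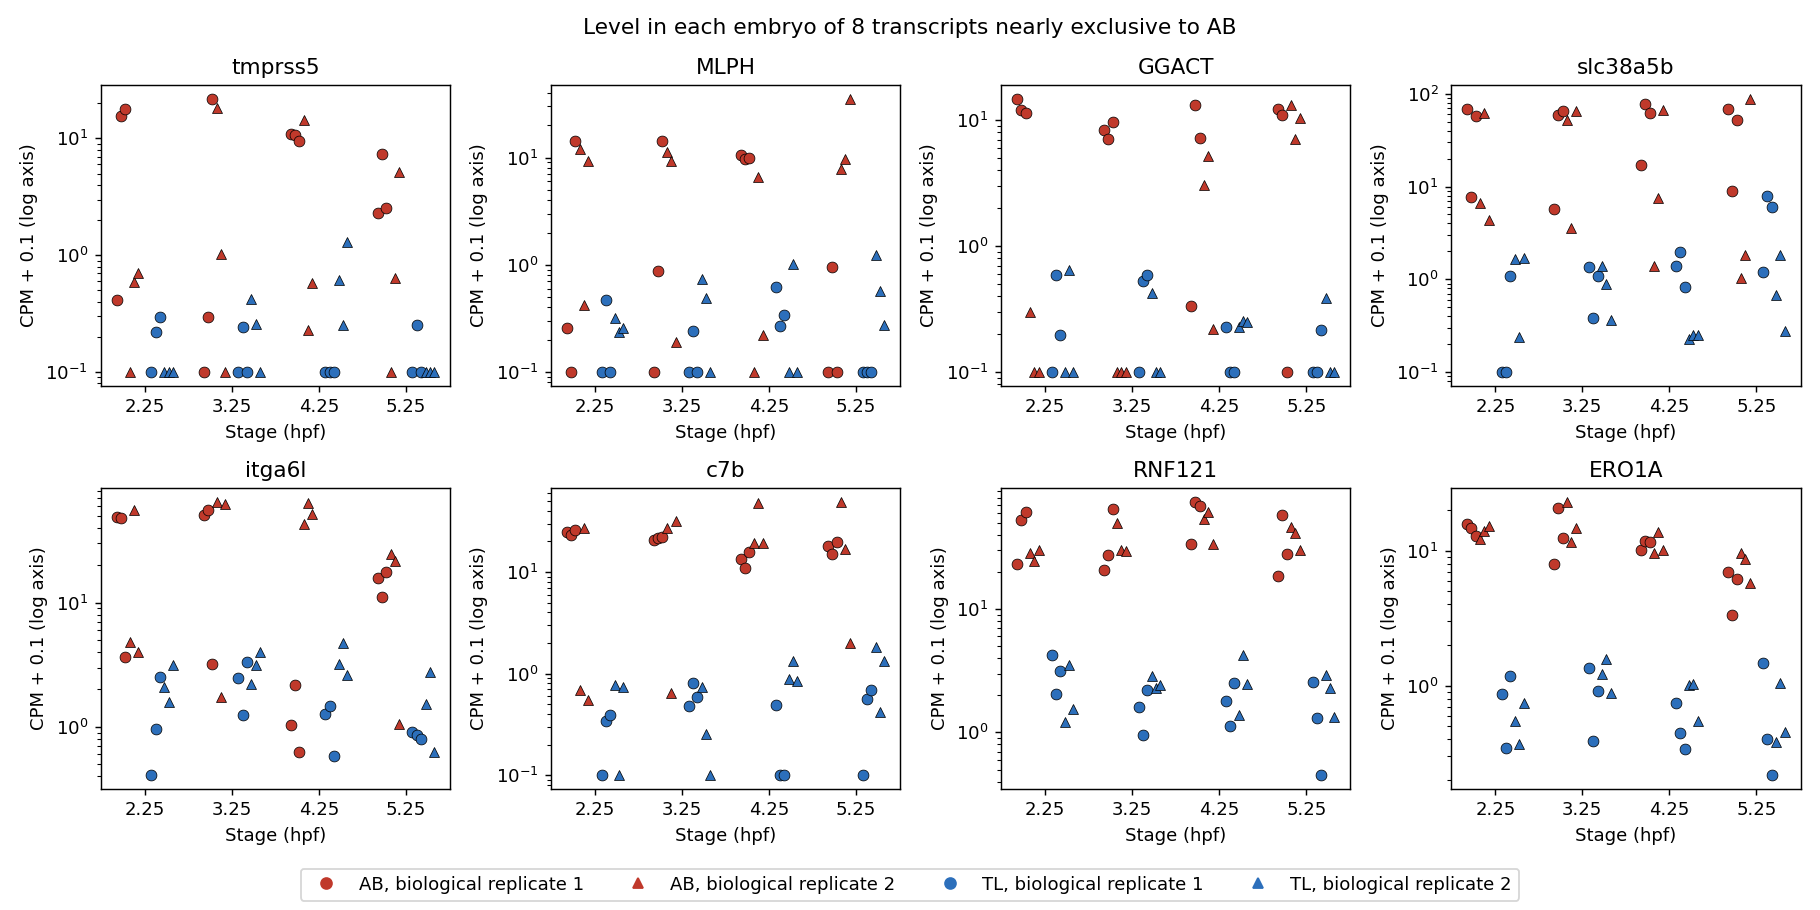
CPM + 0.1 (log axis) of 8 transcripts in every embryo by stage in hpf, with AB in red, TL in blue, circles for biological replicate 1 and triangles for replicate 2. For tmprss5, MLPH, GGACT, slc38a5b, itga6l and c7b some AB embryos lie with or near the TL embryos, and for RNF121 and ERO1A all 24 AB embryos lie above all TL embryos.

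The low embryos were not the same for all transcripts. Over the 24 members with low embryos at 2 or more stages, each AB embryo was low for 4 to 10 of them, and no embryo was low for none. Pairs of embryos of the same stage and replicate were on opposite sides for a median of 8.5 of the 24 members (24 pairs, 1 to 14), and pairs from different replicates for a median of 10 (36 pairs, 6 to 15). The most alike were AB embryos 2 and 3 at 4.25 hpf, with 1 member on opposite sides and 5 low in both. Embryos 4 and 6 at 2.25 hpf were opposite for 3 members and both low for 7. Each embryo that was low for some of the 24 was not low for others.

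Some members were low in the same embryos. cdh4 and plxnb2a.2, which RefSeq places on different chromosomes, were low in exactly the same 4 embryos, namely embryo 3 at 2.25 hpf, embryo 3 at 3.25 hpf and embryos 2 and 3 at 4.25 hpf. In these 4, plxnb2a.2 had 0.371, 0, 0.461 and 0.528 CPM, against at least 7.49 CPM in the other 20. For cdh4 the gap was narrow, with at most 1.45 CPM in these 4 and at least 2.01 CPM in the other 20. The 4 low embryos of c7b were all among the 5 of ENSDARG00000100640. All 3 low embryos of urahb, embryo 1 at 2.25 hpf, embryo 2 at 3.25 hpf and embryo 1 at 5.25 hpf, were also low for NAGPA, for the enzyme that uncovers the mannose 6-phosphate tag of lysosomal proteins, and for si:dkey-104n9.1 (ENSDARG00000093042), and the 3 genes were placed on different chromosomes. Of 276 pairs of members, 5 shared at least 60% of the embryos in which either was low and at least 3 embryos. They were the pairs of cdh4 and plxnb2a.2, c7b and ENSDARG00000100640, NAGPA and zgc:173770, NAGPA and urahb, and urahb and si:dkey-104n9.1. Pairs were looked for after the values had been seen, and no share over pairs of other genes was taken.

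**Figure D4:**
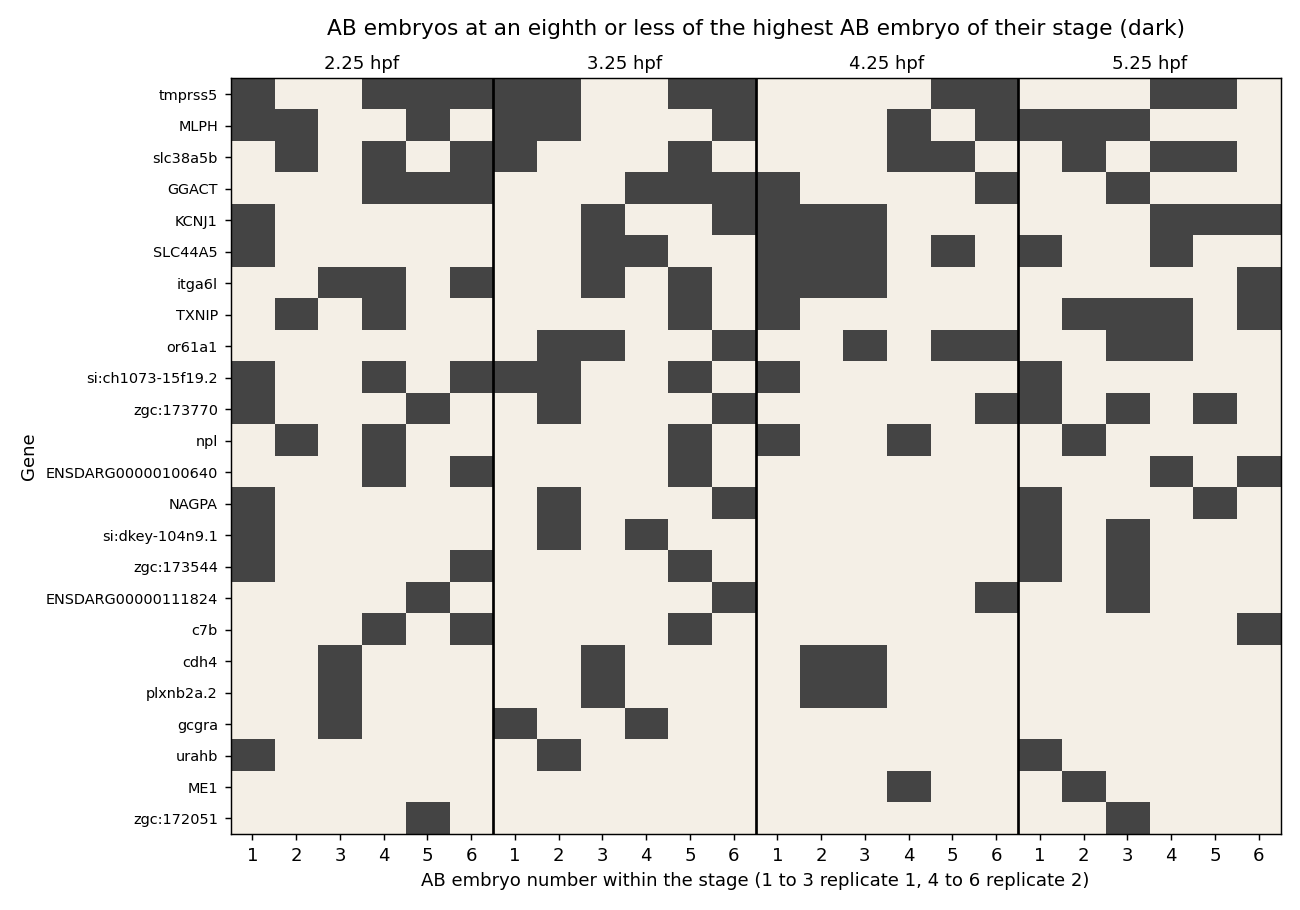
AB embryos (columns, 1 to 6 within each stage) that were low (dark: at most 12.5% of the highest AB embryo of the stage) for each of the 24 members with low embryos at 2 or more stages (rows). Rows are dark in different columns, from 12 of 24 embryos for tmprss5 at the top to 2 for zgc:172051 at the bottom, and cdh4 and plxnb2a.2 share all 4.

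Change with stage was tested within the 24 AB embryos, a contrast the rule did not use, with edgeR's quasi-likelihood test and Benjamini-Hochberg adjustment over all 13341 genes tested. All 49 members passed the filter on low counts. Between 2.25 and 5.25 hpf, 9 members fell and 1 rose at an adjusted p under 0.05, beside 20.5% of all genes tested that fell and 21.1% that rose. As shares, 18.4% of the members fell, near the background, and 2.04% rose. Among genes with at least 2 CPM in AB at all stages the background was 23.4% and 20.3%. Genes under 2 CPM in AB at 2.25 hpf could not be members, so the 21.1% is an unlike background for rises. The members also had a wider spread among AB embryos than the genes at 2 CPM or more at a stage, which makes a call harder to reach. The spread of all genes tested was not taken. The shares of calls are therefore not a like comparison. The median log2 fold change was -0.44 for the members, with 33 of 49 (67.3%) below 0, beside medians of -0.00099 for all genes tested and -0.01 for those at 2 CPM in AB, with 50.1% and 50.8% below 0.

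The steepest fall was that of NEUROD6. Its lowest, median and highest AB embryos had 11.2, 15.1 and 19.4 CPM at 2.25 hpf and 1.07, 2.45 and 3.81 CPM at 5.25 hpf, with no overlap. The log2 fold change was -2.39 (SE 0.33, edgeR adjusted p 1.77e-06), and the fall was called under all 8 alternative settings. TL embryos 1 to 6 had 0, 20, 0, 2, 11 and 18 counts at 2.25 hpf (mean 1.21 CPM), and 0 counts at 4.25 and 5.25 hpf. At 5.25 hpf the AB embryos themselves held only 7 to 28 counts. The timing in TL thus rests on few counts, and nothing is read from it.

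The lowest, median and highest embryos for cts12 were 12.8, 21.1 and 27.6 CPM and then 2.58, 6.16 and 11.2 CPM, a log2 fold change of -1.52 (SE 0.39, edgeR adjusted p 0.00218). ME1 fell by 1.67 (SE 0.49, adjusted p 0.00786), with AB embryos at 4.30 to 22.1 CPM and then 0.851 to 7.21 CPM, which overlap. For misp (ENSDARG00000104047), whose product helps to position the mitotic spindle, the change was -1.42 (SE 0.42, adjusted p 0.00854).

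Smaller falls were called for zgc:171699 (-1.18), ERO1A (-0.86), DUSP22 (-0.83) and zgc:113298 (-0.69), with edgeR adjusted p of 0.00292, 0.00786, 0.0186 and 0.0449. In zgc:171699 the AB mean went from 121 ± 40.3 to 46.3 ± 15.5 CPM (SD, n = 6), still far above the TL embryos, of which the highest at any stage had 5.16 CPM. The called rise was that of si:ch211-66k16.27 (ENSDARG00000091280). Its AB embryos had 2.92 to 10.7 CPM at 2.25 hpf (median 7.84) and 11.6 to 21.3 CPM at 5.25 hpf (median 16.6), without overlap, a log2 fold change of 1.44 (SE 0.37, adjusted p 0.00249). The fitted change of urahb was larger, 1.67, but with an adjusted p of 0.0508 it missed the threshold, and embryo 1 had 0.158 CPM at 2.25 hpf and 0.589 CPM at 5.25 hpf.

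Without replicate 1, with fewer embryos, the edgeR adjusted p rose above 0.05 for si:ch211-66k16.27 (0.0705), zgc:171699 (0.0801), misp (0.126), ME1 (0.153), ERO1A (0.204) and zgc:113298 (0.537), and without replicate 2 for zgc:113298 (0.0667), cts12 (0.0931) and DUSP22 (0.303). In sums over the 3 embryos of a replicate it was above 0.05 for ERO1A (0.0568), DUSP22 (0.0657) and zgc:113298 (0.142). The call for zgc:113298 was also lost with DESeq2's size factors (0.0625) and with no filter on low counts (0.0605), and held in 3 of 8 settings. The p-values measure the spread between embryos of these libraries.

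Between neighbouring stages, members were called in the last step alone. From 4.25 to 5.25 hpf 5 members fell and 1 rose, beside 13.9% and 13.2% of all genes tested, and 16.4% and 12.5% of those at 2 CPM in AB. Among the falls were NEUROD6 (-1.40), cts12 (-1.03), zgc:171699 (-0.86) and DUSP22 (-0.84), and si:ch211-66k16.27 rose by 1.44, all on the log2 scale, with edgeR adjusted p between 0.00238 and 0.0465. Without replicate 1 none of these 5 calls held: the adjusted p was 0.454 for NEUROD6 (log2 fold change -0.65), 0.196 for cts12, 0.538 for zgc:171699 (-0.41), 0.125 for DUSP22 and 0.149 for si:ch211-66k16.27. Without replicate 2 those of cts12 (0.199) and DUSP22 (0.201) were lost. In the sums over embryos those of NEUROD6 (0.0852), zgc:171699 (0.109) and DUSP22 (0.130) were lost, and with DESeq2's size factors that of cts12 (0.0554). From 2.25 to 3.25 hpf edgeR called 0 members in either direction (background 0.525% higher and 0.0450% lower), with 1 at an unadjusted p under 0.05, and from 3.25 to 4.25 hpf also 0 (3.87% and 1.99%), with 0 at an unadjusted p under 0.05. Of the genes at 2 CPM in AB, 0.0661% were higher and 0.0566% lower in the first of these steps, and 1.99% and 2.41% in the second. DESeq2 called 0 members in both steps as well. For the unadjusted p no share of all genes was taken, so nothing is read from those counts. On data simulated with known changes, the edgeR contrast of 5.25 with 2.25 hpf recovered 55.5% of 2-fold and 100% of 4-fold changes. That simulation gave all genes a common spread and did not use the wider spread of the members among AB embryos. These rates are therefore not those of the members, and 0 calls among them cannot be read as a lack of change.

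**Figure D5:**
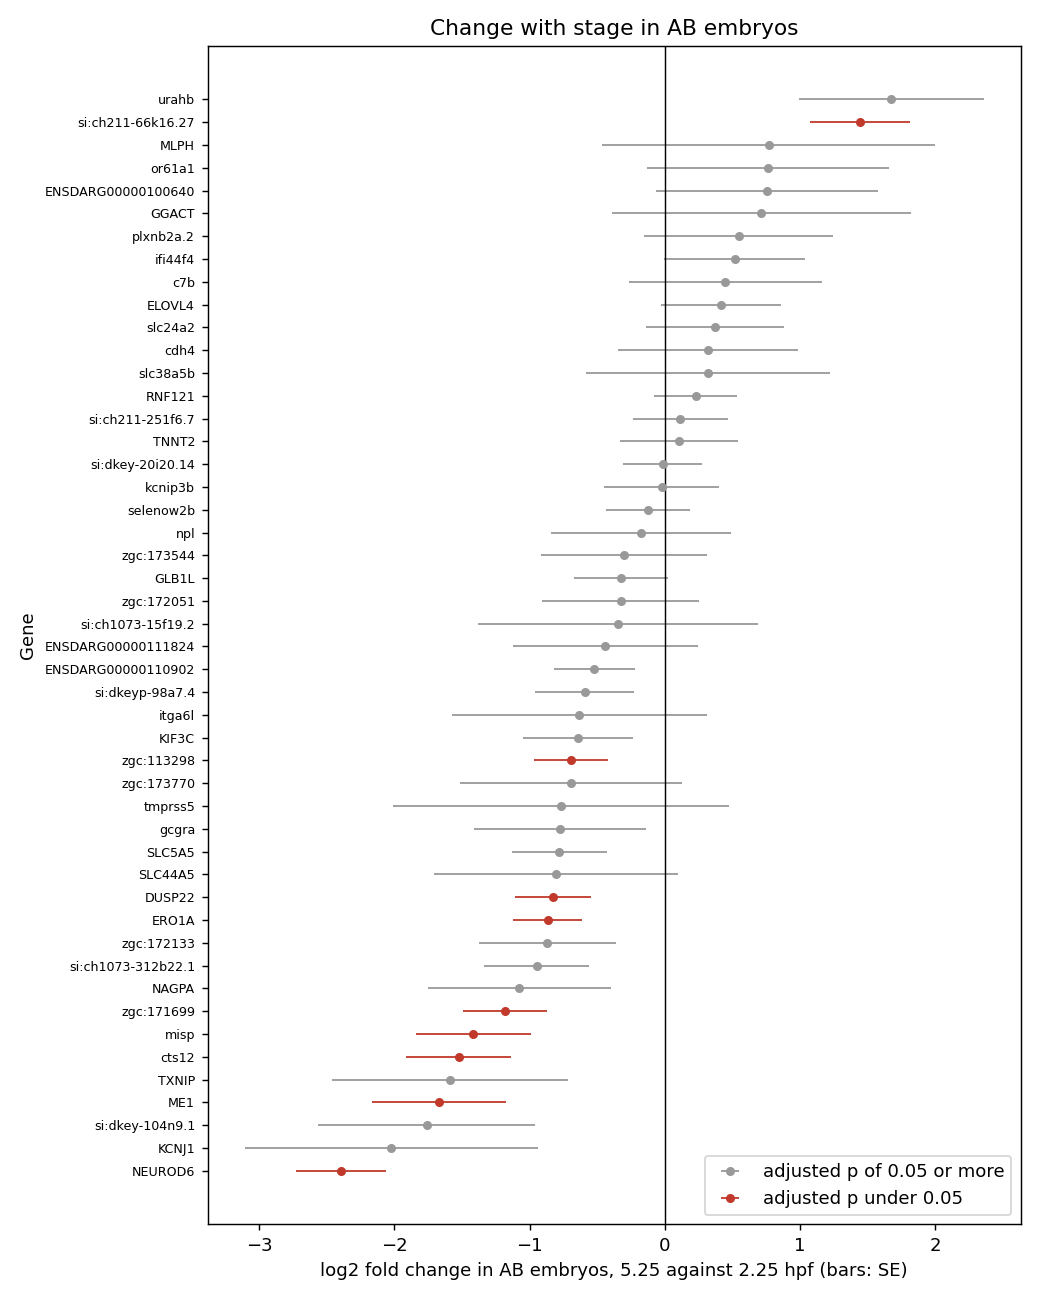
Log2 fold change in AB embryos from 2.25 to 5.25 hpf for 48 of the 49 transcripts, with bars for the SE and red points for an edgeR adjusted p under 0.05. The red points are 8 falls, down to -2.39 for NEUROD6, and 1 rise of 1.44 for si:ch211-66k16.27, and long bars mark genes with low embryos such as MLPH and tmprss5.

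The biological replicates of AB were compared in the same way, with stage in the model. By edgeR's quasi-likelihood test misp was higher in replicate 2, by 0.79 on the log2 scale (SE 0.25, adjusted p 0.0458), and 0 members were lower, beside 5.52% and 4.60% of all genes tested and 6.61% and 4.94% of those at 2 CPM in AB. Of the members, 5 had an unadjusted p under 0.05. The share of all genes at that unadjusted p was not taken, so nothing is read from this count. The call for misp was lost in 8 of 13 alternative settings, with adjusted p from 0.00619 to 0.762. GGACT had the largest difference among the 5, -2.65 (SE 0.87), at an adjusted p of 0.0514. DESeq2's Wald test called 1 member higher and 2 lower, the latter being GGACT and ENSDARG00000100640. Embryos with and without a transcript occurred within one replicate, as for tmprss5 in replicate 1 at 2.25 hpf.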

How the data were processed

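Gene counts per embryo were deposited by the authors as raw, not normalized counts, in one table of 12 embryos per stage, per the file headers. Per the submitters' processing notes, bcl2fastq 2.19.0.316, STAR 2.7.1a and edgeR 3.26.8 were used; the genome build, the use of strand and the collapsing of molecular identifiers are not given in the sources used here. Counts may therefore include PCR copies, and the precision that the depth gives covers counting error only. Symbols came from a table that named 29201 of 32520 IDs, and RefSeq (GRCz12tu) gave gene types and gene order by symbol only.

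Stage and replicate differences in AB were tested with edgeR 4.0.16 (limma 3.58.1, R 4.3.3; filterByExpr, TMM, quasi-likelihood test) at a Benjamini-Hochberg adjusted p under 0.05; DESeq2 1.42.0 was an alternative. The SE of an edgeR log2 fold change is its absolute value divided by the square root of the F value of the test. It was not taken from the fit itself. The fits were tested on simulated data. Replicate numbers pair embryos across stages because the labels tie each to its own sequencing runs; replicate deviations correlated across genes with r of 0.0638 to 0.362 between pairs of stages. Named were the 12 members with the highest AB level, those called by the tests, those at the thresholds, those near another member, those with the highest and lowest spread, and those of known role; the embryo clusters were described after their values were seen. Members and gene lists were chosen with earlier results of these data known. One member is counted among the 49 but is not reported here by itself.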

Additional observations from a re-analysis of the deposited data

Results flagged for a closer look

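In 17 of 196 groups of 6 AB embryos (8.67%; chance flags about 1 in 20), one embryo stood far from the other 5, high in 15 and low in 2. Over all genes at 2 CPM in AB the share was 6.01%, with 83.6% of those high. At 2.25 hpf these were gcgra in embryo 1 (14.8 CPM), ifi44f4 in embryo 1 (6.63 CPM), si:ch1073-15f19.2 in embryo 3 (17.3 CPM) and TXNIP in embryo 5 (37.8 CPM). At 3.25 hpf they were plxnb2a.2 in embryo 3 (0 CPM, the others 8.97 to 11.5), c7b in embryo 5 (0.549 CPM) and or61a1 in embryo 5 (14.8 CPM). At 4.25 hpf c7b and zgc:172051 were high in embryo 5 (47.2 and 20.4 CPM) and NAGPA in embryo 3 (31.4 CPM). At 5.25 hpf KCNJ1 was high in embryo 2 (9.53 CPM), zgc:172133 in embryo 3 (6.70 CPM), c7b and KIF3C in embryo 4 (49.3 and 5.11 CPM), TXNIP and cdh4 in embryo 5 (11.9 and 15.4 CPM) and MLPH in embryo 6 (35.3 CPM). The summed level of the 49 transcripts at 4.25 hpf had one embryo apart, at 657 CPM, with a gap of 0.629 of the whole range.

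For 4 members the embryos of biological replicates 1 and 2 were ordered one way at one stage and the other way at another, without overlap; the difference was not tested. This was 8.16% of the members, beside 3.98% of the genes at 2 CPM in AB. The log2 ratios below were taken after adding 0.1 CPM, which sets their size where a mean is near 0. KCNJ1 had means of 0.708 CPM in replicate 1 and 20.7 in replicate 2 at 4.25 hpf, and 4.74 and 0 at 5.25 hpf, a difference of 10.28 between the log2 ratios. For MLPH they were 10.05 and 2.20 CPM, then 0.284 and 17.5 CPM (-7.66 as the first ratio minus the second). The same difference was -3.10 for ELOVL4 between 2.25 and 4.25 hpf and -2.60 for ME1 between 4.25 and 5.25 hpf.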

How the results depend on the processing

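The number of members was 126 at a TL share of at most 25%, 19 at 6.25%, 32 with at least 5 CPM and 65 with at least 1 CPM. It was 34 when the very abundant ID was kept in the total and 41 with TMM library sizes, all of them among the 49. Membership of the remaining genes thus depended on the scaling. Without replicate 1 the number was 38, of which 31 were among the 49, and without replicate 2 it was 53, of which 39 were. Members rising from 2.25 to 5.25 hpf numbered 2 with DESeq2's size factors, 2 with sums over the 3 embryos of a replicate, and 1 to 2 leaving out a replicate. From 3.25 to 4.25 hpf, leaving out a replicate gave 0 to 2 rises and 0 to 1 falls, and from 4.25 to 5.25 hpf 0 to 3 rises and 2 to 4 falls. In that last step 3 fell in the sums and 3 with an absolute log2 fold change of at least 1. Members higher in replicate 2 numbered 0 in the sums, at 2.25, 3.25 or 5.25 hpf alone and without 2.25, 3.25 or 4.25 hpf, and 4 at 4.25 hpf alone. Those lower numbered 1 with DESeq2's size factors, 2 with no filter, 2 with DESeq2's Wald test, 2 at 2.25 hpf alone, and 1 without 3.25 or without 5.25 hpf. Within 1 gene rank 0 members were near another member and 0 near a gene of the exchanged kind, where both backgrounds were under 1%. Within 20 ranks 7 of the placed members (20.6%) were near another member, beside 6.82% of the placed genes. Within 20 ranks of a gene of the exchanged kind were 2 members (5.88%), close to the background of 4.37%. With the replicate block, 1 member rose and 9 fell from 2.25 to 5.25 hpf, and 1 rose and 6 fell in the last step. No called value changed sign. The causes of these moves were not tested, and some settings also held fewer embryos or genes. Low embryos at 2 or more stages were found for 33 members (67.3%) at 25% of the highest embryo, beside 13.3% of the genes at 2 CPM in AB. At 6.25% they were found for 19 members (38.8%), beside 2.04%. These alternatives were chosen after seeing the data. TL embryos held few counts of the members, which limits what is said of the TL level.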
